A study of Mus musculus with 2 samples.

Results

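The occupancy of SREBP-2 was examined at 4 loci of autophagy and the lysosome in mouse liver, those of Map1lc3b, Atg4b, Atg4d and Lamp1. The loci were taken as 10 kb to each side of a promoter position supplied for each gene, and all listed SREBP-2 peaks with a midpoint inside were kept, which gave 5 of the 1800 peaks in the list used here. The genes were selected on the SREBP-2 signal seen earlier in these same reads, so the values below describe the loci and no test was made of them. Chromatin immunoprecipitation and sequencing had been done once with an antibody to the nuclear, amino-terminal domain of SREBP-2 and once with non-specific IgG as the control, both on liver of C57BL/6 mice. Age, diet, treatment, genotype and the number of animals behind each sample were not given in the sources used here. With 1 library per antibody, there is no measure of how much these values vary from animal to animal. The SREBP-2 library has 7312431 deposited reads and the IgG library 12762782.

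SREBP-2 is a transcription factor made as a membrane protein of the endoplasmic reticulum. When sterols are low it is cut, and its amino-terminal domain enters the nucleus and activates genes of cholesterol synthesis and uptake, through sterol regulatory elements. Autophagy encloses cytoplasm, organelles or lipid droplets in a membrane and delivers them to the lysosome, and in hepatocytes this route also breaks down stored lipid. Map1lc3b encodes LC3B, a small protein that is joined to a lipid of the growing autophagosome membrane. Atg4b and Atg4d encode cysteine proteases that trim LC3 proteins before this step and release them afterwards. Lamp1 encodes an abundant glycoprotein of the lysosomal membrane.

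SREBP-2 reads stood highest over IgG at Lamp1 and, as reads were placed here, lowest at Atg4d. The ratio of SREBP-2 to IgG in the listed peak was 10.2 at Lamp1, 5.08 at the Map1lc3b promoter and 3.54 at Atg4b. It was 1.95 at Atg4d and 2.15 at a further peak upstream of Map1lc3b, and at both of these the 95% interval included 1. At Atg4d this depended on where reads were placed. Its ratio was 2.68 (1.41 to 5.05) with reads shifted by 47 bp in place of the 100 bp used here. With reads at their 5' ends it was 3.07 (1.56 to 6.10), and that of Atg4b 3.03. The shift of 47 bp fits the spacing of the strands at listed peaks more closely than that of 100 bp. At 3 of the 4 loci the signal lay at the supplied promoter position, while at Atg4b it lay 3.6 kb from that position. The supplied positions were not checked against an annotation, so whether the Atg4b peak lies at a start site was not determined.

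The promoters of the 4 genes are shown for the motifs they hold. The signal was counted around the supplied positions, which were not placed on these sequences. The promoters were matched by symbol in a RefSeq table of the build GRCm38.p6, which held all 4, and run from 250 bases before to 50 bases after the start site. Map1lc3b lies there at chr8:121590188-121590487, Atg4b at chr1:93754655-93754954, Atg4d at chr9:21265035-21265334 and Lamp1 at chr8:13158911-13159210, all on the plus strand. The reads are in another build and no coordinate was converted, so the signal cannot be laid on these bases. Capitals mark exact matches to the motifs described in the paragraphs that follow. In Lamp1 they are E-boxes with the CLEAR core around them, in Map1lc3b and Atg4b GC boxes, and in Atg4d a GC box and an NF-Y box.
Map1lc3b: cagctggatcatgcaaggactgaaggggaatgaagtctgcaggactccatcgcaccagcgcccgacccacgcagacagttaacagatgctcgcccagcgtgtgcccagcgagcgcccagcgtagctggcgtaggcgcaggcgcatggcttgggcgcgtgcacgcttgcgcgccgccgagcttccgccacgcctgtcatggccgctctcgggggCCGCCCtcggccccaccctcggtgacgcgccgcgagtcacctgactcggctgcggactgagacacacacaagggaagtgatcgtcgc
Atg4b: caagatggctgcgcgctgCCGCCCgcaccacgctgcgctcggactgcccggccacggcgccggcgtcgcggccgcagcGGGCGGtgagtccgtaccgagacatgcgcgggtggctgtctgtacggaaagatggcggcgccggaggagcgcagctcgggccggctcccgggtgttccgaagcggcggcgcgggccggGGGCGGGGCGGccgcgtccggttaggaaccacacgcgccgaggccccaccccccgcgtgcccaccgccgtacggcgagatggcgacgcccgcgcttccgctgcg
Atg4d: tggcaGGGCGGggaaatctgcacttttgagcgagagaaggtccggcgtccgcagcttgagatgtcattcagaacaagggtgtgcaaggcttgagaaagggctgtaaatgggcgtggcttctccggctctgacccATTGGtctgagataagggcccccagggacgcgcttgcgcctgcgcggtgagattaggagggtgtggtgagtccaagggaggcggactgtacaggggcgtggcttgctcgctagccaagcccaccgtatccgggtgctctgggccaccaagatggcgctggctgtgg
Lamp1: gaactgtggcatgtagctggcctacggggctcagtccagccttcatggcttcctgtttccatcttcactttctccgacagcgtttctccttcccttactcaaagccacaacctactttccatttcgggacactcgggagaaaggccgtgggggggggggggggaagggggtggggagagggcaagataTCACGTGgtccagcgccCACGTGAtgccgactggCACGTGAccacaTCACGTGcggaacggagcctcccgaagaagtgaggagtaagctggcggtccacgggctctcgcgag

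The Lamp1 promoter held 4 E-boxes, the motif CACGTG, within the 62 bases before the start site. They span bases -61 to -56, -45 to -40, -28 to -23 and -15 to -10. Each of the 4 also matched TCACGTG on one strand, the core of the CLEAR element that TFEB, a regulator of lysosomal genes, is known to bind, so these matches overlap the E-boxes. An E-box was found in 7.15% of the 32851 promoters in the table and the CLEAR core in 3.77%, and 8 promoters held at least 4 E-boxes. No E-box was found in the windows of Map1lc3b, Atg4b or Atg4d. An exact match to TCACNCCAC, a form of the sterol regulatory element, was found in none of the 4 windows and in 1.24% of all promoters.

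With at most 1 mismatch allowed, that element matched once in Atg4d, at bases -56 to -48 (TCACCACAC), and once in Lamp1, at bases -81 to -73 (TCTCCCCAC), both on the minus strand. Such matches were present in 24.2% of all promoters and are not marked in the sequences. The GC box GGGCGG, which Sp1 binds, was found 4 times in Atg4b and once each in Map1lc3b and Atg4d, and in 35.7% of all promoters. The NF-Y box CCAAT was found once, in Atg4d, and in 37.4% of all promoters. All motifs were searched on both strands. These matches are letters in a window, and say nothing of whether a factor is bound there.

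**Figure D1:**
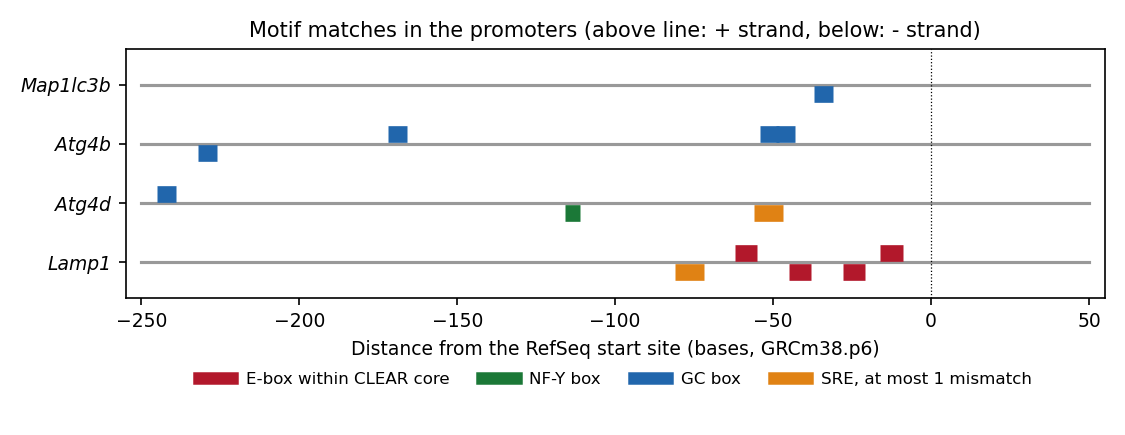
Positions of motif matches (coloured boxes) in the RefSeq promoters of the 4 genes, in bases from the start site, with plus-strand matches above and minus-strand matches below each line. The 4 E-boxes of Lamp1 lie between bases -61 and -10, and no other of these promoters holds one.

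The 4 windows were richer in G and C than most promoters, whose median was 52.7%. Atg4b had 78.0% G and C and 55 CpG dinucleotides, more than 99.75% of the promoters. Map1lc3b had 68.0% and 34, Atg4d 61.7% and 18, and Lamp1 60.7% and 19, where the median promoter had 7 CpG. In the gene table Lamp1 lies between Cul4a and Grtp1, and Atg4b between Thap4 and Dtymk. Atg4d lies between S1pr5 and Cdkn2d and overlaps Kri1. Map1lc3b overlaps Zcchc14, and its nearest protein-coding neighbours outside it are Fbxo31 and Jph3. Position alone does not assign a signal near their borders to one of these genes.

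Reads were counted as distinct reads, 1 for each 5' end and strand, placed 100 bp downstream, the centre of a fragment of 200 bp. The SREBP-2 strands lay a median of 90 bp apart over listed peaks with at least 20 reads. That is less than such fragments would give, so this shift may carry reads past the centre. The alternative shift of 47 bp fits that spacing more closely. Distinct reads are the basis of all values below unless stated. The SREBP-2 library held 2396147 distinct reads and the IgG library 7011345. Each ratio compares the share of its library that a region holds, with 1 read added to each count. The 95% interval given in brackets was found from the raw counts by the exact Clopper-Pearson method. Such intervals cover counting error only. The SREBP-2 library is the shallower, and single 200 bp windows of these loci held from 0 to 35 of its reads.

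At Lamp1 the peak on chromosome 8 at 13159085 to 13159587 (503 bp) counted 79 reads with SREBP-2 against 22 with IgG, a ratio of 10.2 (6.48 to 17.7). The signal was confined to a few windows of 200 bp. SREBP-2 reads numbered 34 from -200 to -1 bp of the promoter position, 35 from 0 to 199 bp and 10 from 200 to 399 bp. The windows next to these, from -400 to -201 bp and from 400 to 599 bp, held 1 read each. IgG reads in the same 5 windows, in order, numbered 9, 5, 10, 8 and 12. The IgG library thus had its highest window of this locus just beside the SREBP-2 signal, 400 to 599 bp from the promoter position.

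At Map1lc3b the promoter peak, on chromosome 8 at 124114184 to 124114444 (261 bp), counted 32 reads with SREBP-2 against 18 with IgG, a ratio of 5.08 (2.83 to 9.84). The window from 0 to 199 bp held 24 SREBP-2 and 15 IgG reads, and that from -200 to -1 bp held 10 and 7. From 200 to 399 bp the counts were 3 and 14, from 400 to 599 bp 4 and 8, and from 600 to 799 bp 0 and 8. As at Lamp1, IgG reads fell off less downstream than SREBP-2 reads did, but at Map1lc3b a few SREBP-2 reads went on to 599 bp.

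The further peak near Map1lc3b, on chromosome 8 at 124109468 to 124109674 (207 bp), lay 4.68 kb upstream of the promoter position. It counted 10 reads with SREBP-2 against 14 with IgG, a ratio of 2.15 (0.831 to 5.06). The IgG library had its highest window of the locus beside this peak, 19 reads from -5000 to -4801 bp, where SREBP-2 had 7. Over the peak as a whole the interval included 1, while the window from -4800 to -4601 bp, with 11 and 13 reads, had a ratio of 2.51 (1.004 to 5.99). Another listed peak lay just outside the limit of 10 kb, 11.6 kb upstream on chromosome 8 at 124102410 to 124102847, with 32 and 21 reads and a ratio of 4.39.

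At Atg4b the supplied promoter position was nearly empty. The 400 bp centred on it held 0 SREBP-2 and 4 IgG reads, and a count of 0 allows up to 3 reads. The listed peak, on chromosome 1 at 95651492 to 95651899 (408 bp), counted 28 reads with SREBP-2 against 23 with IgG, a ratio of 3.54 (1.98 to 6.47). Here the libraries overlapped differently from Lamp1: SREBP-2 reads numbered 5, 6, 6, 14 and 14 in the 5 windows from 2800 to 3799 bp, and IgG reads 11, 15, 12, 11 and 12 in the same windows. The IgG reads formed a level block that began at 2400 bp, and SREBP-2 reads were highest at its far end. No annotation of the build of the reads was used here, so whether a start site of Atg4b, or of Thap4, lies at the peak was not determined. The next listed peak on chromosome 1 was 1.28 Mb away.

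At Atg4d the peak, on chromosome 9 at 21069701 to 21070027 (327 bp), counted 17 reads with SREBP-2 against 26 with IgG, a ratio of 1.95 (0.974 to 3.66). The window from 0 to 199 bp held 15 and 19 reads, and was the highest window of the locus in both libraries. Whether the interval included 1 changed with where reads were placed. With a shift of 47 bp the ratio was 2.68 (1.41 to 5.05), and with reads at their 5' ends 3.07 (1.56 to 6.10). With all reads as deposited it was 1.23 (0.770 to 1.92).

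**Figure D2:**
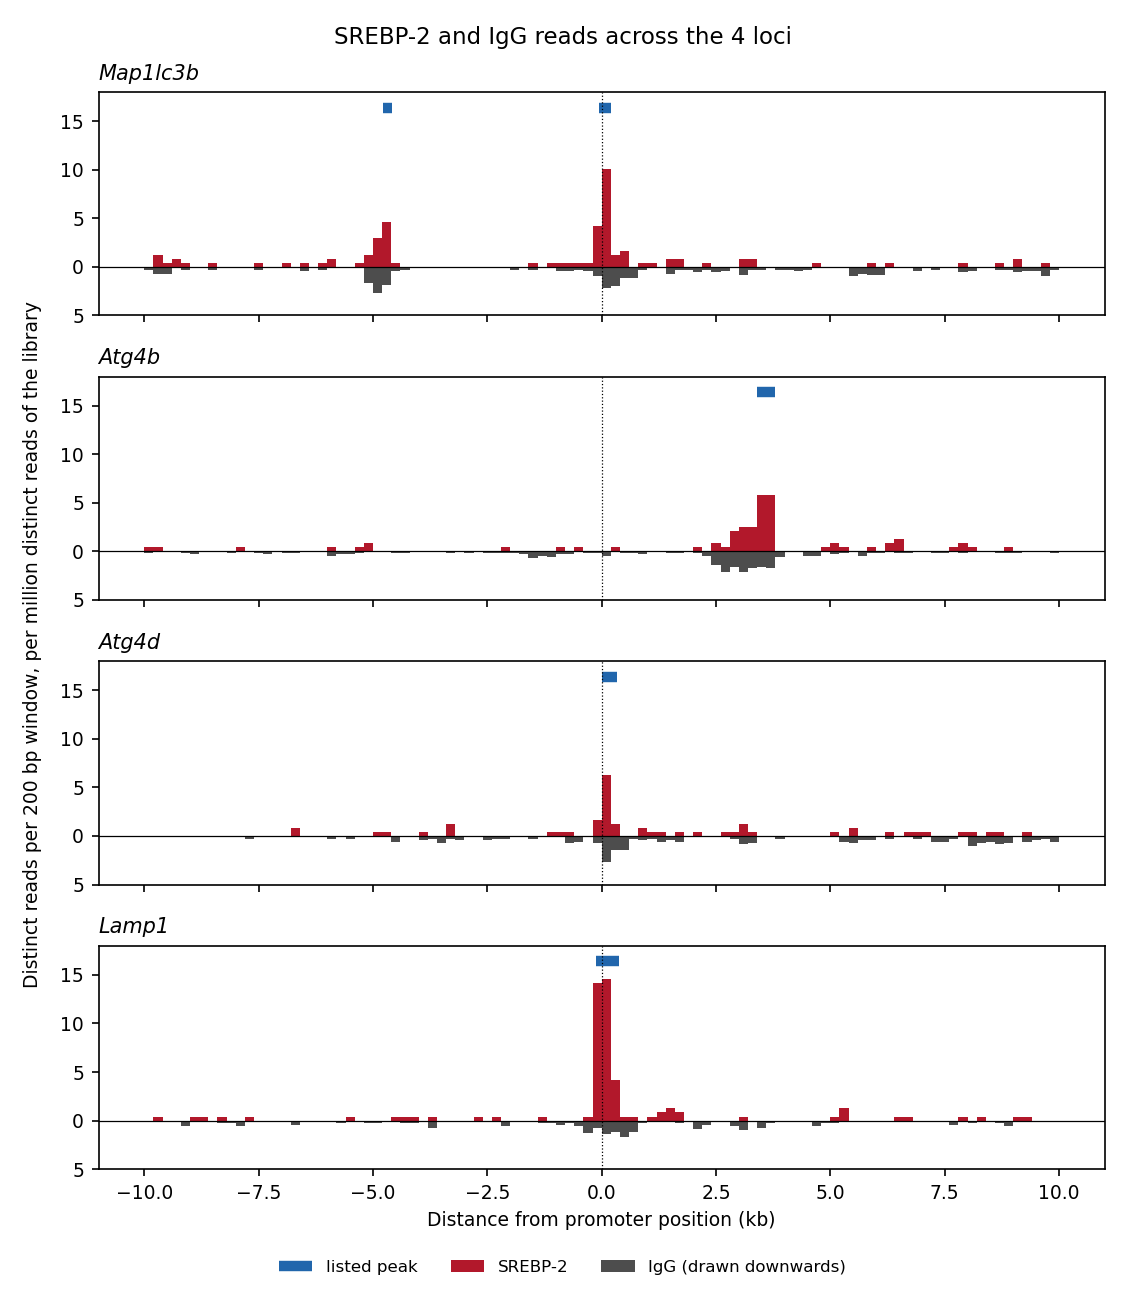
Distinct reads in 200 bp windows, scaled to the distinct reads of each library, against the distance in kb from the promoter position; SREBP-2 is drawn upwards, IgG downwards, and blue bars are listed peaks. Lamp1 has the highest windows, Map1lc3b has its highest SREBP-2 window at the promoter and lower ones near the peak at 4.68 kb upstream, and at Atg4b both libraries gather beyond 2.4 kb while the promoter position is nearly empty.

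The interval of the ratio lay wholly above 1 at 3 of the 4 peaks nearest to the promoter positions, where 92.4% of all listed peaks passed. It lay wholly above 2 at 2 of the 4, Lamp1 and Map1lc3b, where 29.2% of all peaks passed. As the same reads chose the loci, these counts are given as a description. Among the 1800 peaks the ratio ranked 30 at Lamp1, 238 at Map1lc3b, 682 at Atg4b and 1737 at Atg4d, and 1659 at the upstream peak of Map1lc3b. The median over all peaks was 3.15. Counting error leaves these ranks wide: the interval of the ratio spans ranks 6 to 107 for Lamp1, 34 to 1137 for Map1lc3b, 108 to 1736 for Atg4b and 613 to 1800 for Atg4d. The rank of Atg4d also changed with the placement of reads, to 1331 with a shift of 47 bp and 1051 with reads at their 5' ends.

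Ranked by SREBP-2 reads alone, Lamp1 was 27, Map1lc3b 328, Atg4b 473 and Atg4d 1173. Per 100 bp of peak, the density of SREBP-2 reads put Map1lc3b at 38 of 1800 (12.3 reads) and Lamp1 at 23 (15.7 reads), against a median of 5.45. The density was 6.86 at Atg4b, 5.20 at Atg4d and 4.83 at the upstream peak of Map1lc3b. IgG reads were densest at Atg4d, 7.95 per 100 bp, above 93.9% of all peaks, and lowest at Lamp1, 4.37, where the median was 5.15. At Map1lc3b and Atg4b the IgG density was 6.90 and 5.64. Over the 4 peaks nearest to the promoter positions SREBP-2 density fell in the order of the ratios. IgG density was lowest and highest at the ends of that order, Lamp1 and Atg4d, but higher at Map1lc3b than at Atg4b. Both counts enter the ratio, so a shared order is largely built in.

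**Figure D3:**
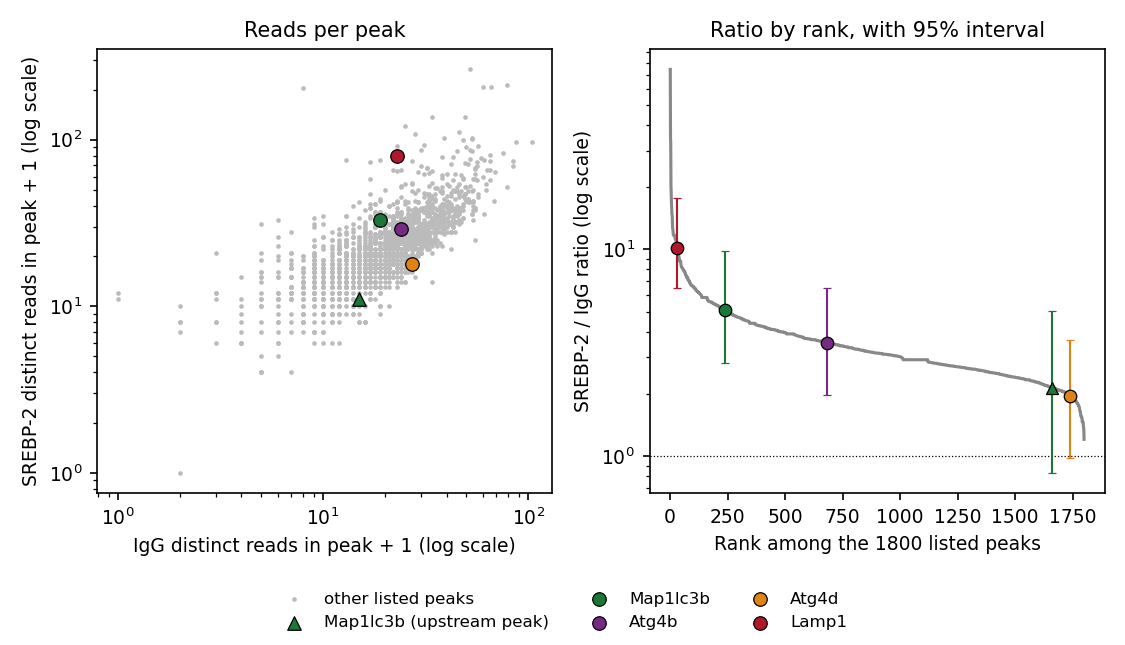
Left, distinct SREBP-2 against IgG reads in each of the 1800 listed peaks, with 1 added, on log scales; right, the ratio against its rank, with 95% intervals for the 5 peaks of the loci. With reads shifted by 100 bp, Lamp1 stands at the upper edge of the peaks, at rank 30, and Atg4d at their lower edge, at rank 1737.

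No peak list is needed to see where each locus was highest. The window with most SREBP-2 reads held 35 reads at Lamp1, 24 at Map1lc3b, 15 at Atg4d and 14 at Atg4b. Of the 12887976 windows of 200 bp on the chromosomes with peaks, 112 held at least as many as Lamp1, 225 as Map1lc3b, 1009 as Atg4d and 1280 as Atg4b. The ratios of these windows were 9.58 (4.96 to 23.2), 4.57 (2.36 to 9.60), 2.34 (1.09 to 4.80) and 3.66 (1.57 to 9.07), in the same order. At Atg4b the next window held as many SREBP-2 reads, 14 with 12 of IgG, and its ratio was 3.38 (1.47 to 8.08). All 4 lower bounds lay above 1, as they did at 78.8% of the windows with at least 10 SREBP-2 reads. The interval at Atg4d included 1 with all reads as deposited (1.42, 0.844 to 2.35), against the 36-base IgG reads (1.93, 0.896 to 4.01) and in windows of 400 bp (1.85, 0.950 to 3.38). That at Atg4b included 1 with reads at their 5' ends (2.05, 0.909 to 4.27).

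Outside the listed peaks no window of the loci had an interval wholly above 1. Those windows held at most 7 SREBP-2 reads at Map1lc3b, 6 at Atg4b, 4 at Atg4d and 3 at Lamp1. With so few reads a lower bound above 1 was hard to reach, so a lack of signal there is not shown. Of the 400 windows, 9 had a lower bound above 1, and all 9 overlapped a listed peak. The loci less their peaks counted 183 reads with SREBP-2 against 706 with IgG, a ratio of 0.762 (0.641 to 0.894). By locus this ratio was 0.779 (0.571 to 1.02) at Map1lc3b, 0.936 (0.650 to 1.29) at Atg4b, 0.674 (0.457 to 0.936) at Atg4d and 0.707 (0.464 to 1.01) at Lamp1. All 4 ratios outside the peaks were below 1, with intervals that included 1 at Map1lc3b, Atg4b and Lamp1. Against the 37-base IgG reads alone, described further on, they were 1.275 (0.824 to 2.08) at Map1lc3b and 1.055 (0.656 to 1.77) at Atg4b, above 1, and the interval at Atg4d then included 1 (0.871, 0.532 to 1.47). Other settings went the other way. Against the 36-base reads the interval lay wholly below 1 also at Map1lc3b (0.511 to 0.926) and Lamp1 (0.435 to 0.956). With all reads as deposited, repeats included, it lay wholly below 1 at all 4 loci.

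The peaks held 69.3% of the SREBP-2 reads of the Lamp1 locus, 40.8% at Map1lc3b, 37.3% at Atg4b and 29.8% at Atg4d. For IgG reads these shares were close to each other, 12.9%, 12.1%, 13.4% and 12.8%. SREBP-2 reads were 87.5 times as dense in the peak as in the rest of the locus at Lamp1, and 28.7, 28.6 and 25.6 times at Map1lc3b (both peaks), Atg4b and Atg4d. IgG reads were likewise denser in the peaks, 5.76 times at Lamp1, 5.76 times at Map1lc3b, 7.41 times at Atg4b and 8.84 times at Atg4d. The listed peaks are those of the SREBP-2 library, so its density within them is high by choice.

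The shape of the read density also differed between the loci. Fragments of 200 bp laid on the SREBP-2 reads had their summit 12 bp from the promoter position at Lamp1, 61.5 bp at Map1lc3b and 60 bp at Atg4d, and 3537.5 bp at Atg4b. Bases at or above 50% of the summit were counted within 1 kb of the midpoint, whether or not they were joined to the summit. With SREBP-2 they numbered 216 at Lamp1, 239 at Atg4d, 268 at Map1lc3b, 334 at Atg4b and 473 at the upstream peak of Map1lc3b. With IgG they numbered 855, 599, 808, 1191 and 491 in the same order. These counts can join separate rises, so they are not widths of single peaks. Of the SREBP-2 reads within 1 kb of the midpoint, 95.2% lay in the listed peak at Lamp1, and from 43.5% to 69.6% at the other 4 peaks. The listed peaks run from 207 bp upstream of Map1lc3b to 503 bp at Lamp1, and a wider peak takes in more reads. For IgG the shares were 27.5% to 43.3% over the 5 peaks.

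Plus-strand reads begin before and minus-strand reads after the middle of a sequenced fragment, bound or not. The order of the strands is thus no measure of binding, and the distance between them was not computed for IgG reads. With SREBP-2 the minus-strand median lay after the plus-strand median at all 5 peaks. The offset was 101 bp at Lamp1, 93 bp at Atg4d, 62.5 bp at Map1lc3b, 88 bp at its upstream peak and 154 bp at Atg4b. The median over the 1012 listed peaks with at least 20 SREBP-2 reads was 90 bp (25th to 75th percentile 58.5 to 113.1 bp), and 92.8% of these peaks had a smaller offset than Atg4b. The peaks of Atg4d and upstream of Map1lc3b have fewer reads than that minimum, so their offsets are the least certain. Both strands were present in like numbers, 42 plus and 37 minus at Lamp1, 18 and 14 at Map1lc3b, 15 and 13 at Atg4b, and 9 and 8 at Atg4d.

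**Figure D4:**
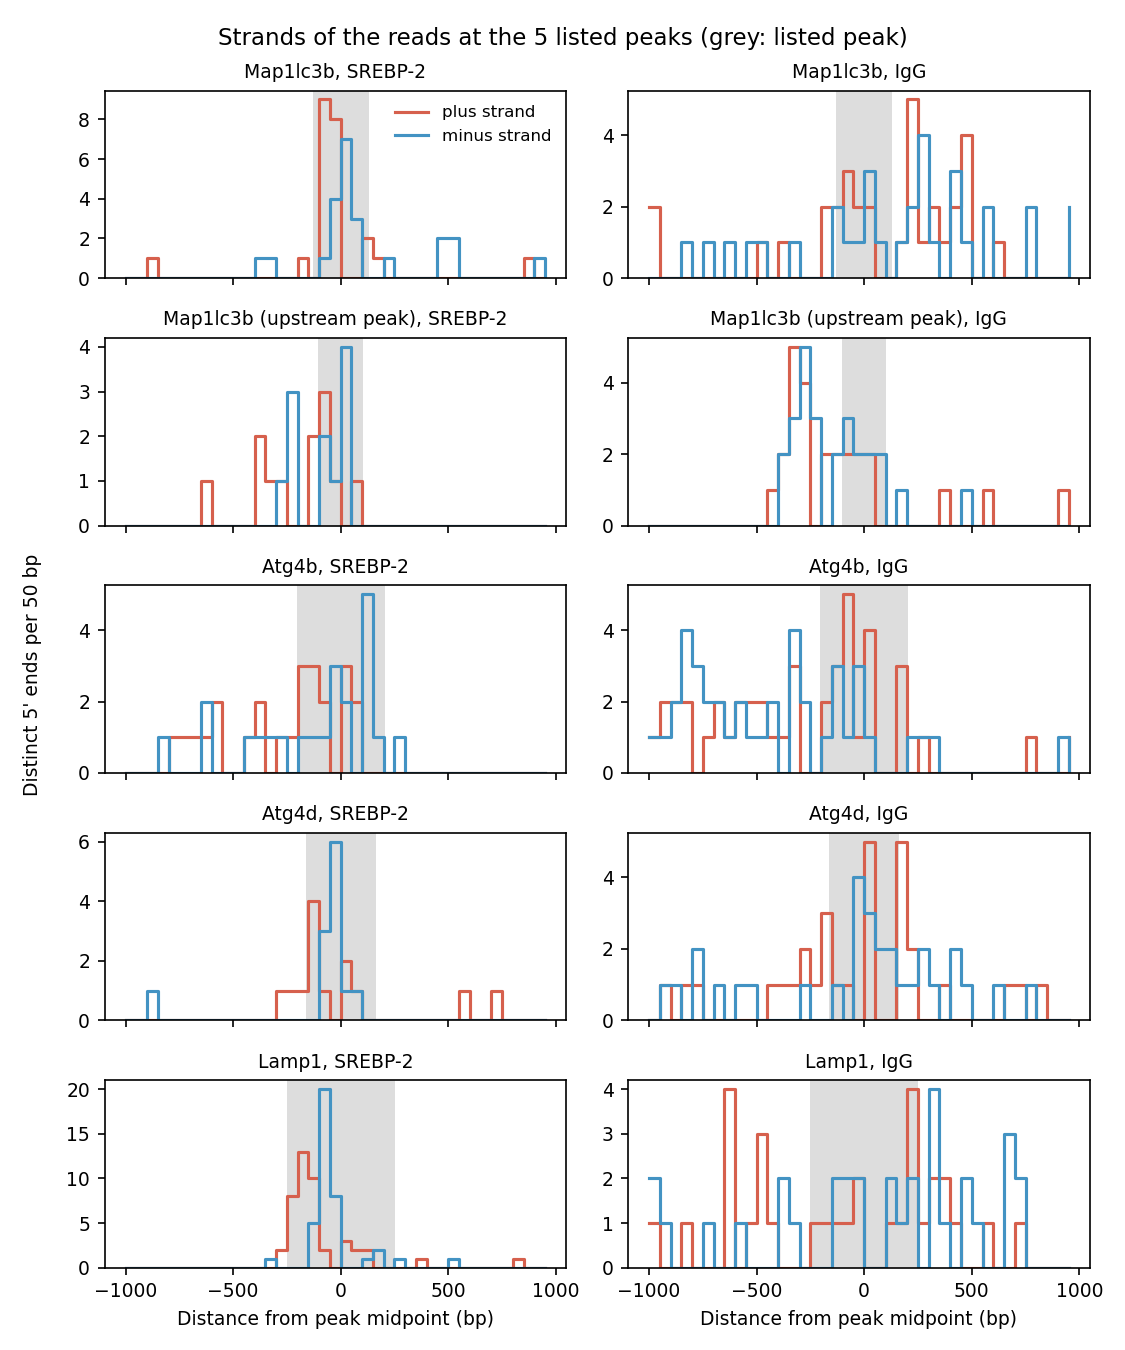
Distinct 5' ends per 50 bp on each strand, against the distance in bp from the midpoint of each of the 5 listed peaks (grey), for SREBP-2 on the left and IgG on the right; the vertical scales differ. At Lamp1 the plus-strand SREBP-2 reads come just before the minus-strand ones, while the IgG reads are spread over the 2000 bp shown.

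Repeated reads at the same position were less frequent in these peaks than in the library as a whole. Each SREBP-2 position carried 2.22 reads as deposited at Lamp1, 1.94 at Map1lc3b, 1.5 at Atg4b and 2.06 at Atg4d, below the 3.05 of the whole library. The same held for listed peaks in general, whose median was 1.92 over those with at least 20 reads, and 81.6% of these had fewer reads per position than Lamp1. The most reads at 1 position were 9 at Lamp1, 5 at Map1lc3b, 3 at Atg4b and 4 at Atg4d. Of the SREBP-2 positions in these peaks 6, 0, 1 and 2, in the same order, were also IgG positions.

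The IgG file holds reads of 36 and of 37 bases, and the control used changed the size of the ratios and, for the 37-base reads, their order. Against the 36-base reads the ratio was 9.17 (5.72 to 16.7) at Lamp1, 3.98 (2.22 to 7.71) at Map1lc3b, 2.77 (1.55 to 5.07) at Atg4b and 1.72 (0.850 to 3.31) at Atg4d. The order of the genes was the same as against all IgG reads. The 37-base reads numbered 3 at Lamp1 and 3 at Atg4d, which gave ratios of 12.75 (5.54 to 83.1) and 2.87 (1.045 to 19.2). No 37-base read fell in the promoter peak of Map1lc3b or in the peak of Atg4b. Their ratios, 21.0 and 18.5, were above that of Lamp1, but both are set by the 1 read added to the control. The lower end of the 95% interval against that control was 5.22 at Map1lc3b and 4.53 at Atg4b.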

How the data were processed

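ChIP-seq reads of 1 SREBP-2 and 1 IgG sample of mouse liver were used. Per the labels' protocols, 20 ng of DNA was made into libraries of 200 ± 5 bp fragments for an Illumina Genome Analyzer. The authors deposited aligned read positions, with a score column that is 1 on every line and was not used, and SREBP-2 peak positions without scores. The values in these files are positions in bases. The aligner, peak caller and build were not named in the sources used here. Coordinates, printed 1-based, are taken to be mm9. The promoter positions came with the definition of the loci and were not checked against an annotation of that build.

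Reads were reduced to 1 per 5' end and strand, shifted by 100 bp and counted in peaks and in 200 bp windows with Python 3.11.15, numpy 2.4.6, pandas 2.3.3 and scipy 1.17.1, and drawn with matplotlib 3.10.9. Summits, widths and strand offsets were read from distinct reads, the offset from 5' ends in the peak and 100 bp to each side. The named genes are the 4 members, every listed peak within 10 kb and the neighbouring genes of each. A list of 44 autophagy and lysosome genes was also drawn up. Promoters were at hand for 34 of them, under 80%, so a motif comparison over the list was void, and without an annotation of the build no peaks were counted for it. The members, lists and motifs were chosen with earlier results of these data known.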

Additional observations from a re-analysis of the deposited data

How the results depend on the processing

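Under the alternative settings 145 values stayed within the counting interval of the reported value (counts of peaks and loci within 1.5 times) and no value whose interval lay wholly on one side of 1 crossed it. Most of the 11 that moved came from the 37-base IgG reads alone, a control with few reads here: the peak ratio became 21.0 at Map1lc3b and 18.5 at Atg4b, both set by the read added to a control count of 0, and the window ratio 15.9 at Map1lc3b, 9.56 at Atg4b and 5.10 at Atg4d. The ratio outside the peaks became 1.275 at Map1lc3b, above 1 where it had been below, and the rank 60 at Atg4b and 172 at Lamp1. At Atg4b the ratio outside the peaks became 1.055, also above 1, but stayed within its counting interval and is not among the 11. With all reads as deposited the Lamp1 window ratio became 25.3, since the window with most reads was then that from -200 bp. With at most 1 mismatch in the sterol regulatory element, Atg4d and Lamp1 each had 1 match where they had 0. The count of loci with a lower bound above 1, 3 of 4, became 4 with reads at their 5' ends, with the shift of 47 bp and against the 37-base reads, each time through Atg4d, which also passed when 250 bp to each side of the midpoint were counted (ratio 2.10, 1.15 to 3.70). For the window with most reads, the lower bound at Atg4d fell below 1 with all reads, against the 36-base reads and with windows of 400 bp, and that at Atg4b with reads at their 5' ends. Over the alternatives the peak ratio ranged from 9.17 to 12.75 at Lamp1 and from 1.23 to 3.07 at Atg4d. No paired analysis was possible because there is only 1 library for each antibody. Depth limits all of these values: the peak of Atg4d held 17 SREBP-2 reads.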
